A study of Homo sapiens with 2 samples.

Results

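Canonical replication-dependent histone genes encode the H1, H2A, H2B, H3 and H4 proteins that package newly copied DNA. Members were protein-coding genes of GENCODE release 44 with a symbol in the H1-1 to H1-6, H2AC, H2BC, H3C or H4C series, H4-16 being listed there as H4C16. Of 69 such genes, 65 had an identifier among the 58735 Ensembl genes of the count tables, of which 19831 are protein-coding. H2AC18, H2AC19, H3C2 and H3C3 were not analysed here.

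The cells were MCF10a-Snail-ER, a derivative of a non-tumorigenic human mammary epithelial line that stably carries the repressor Snail joined to the estrogen receptor. Tamoxifen at 100 nM had been given for 1 day, at the start of an epithelial-to-mesenchymal transition. Matched poly(A) RNA gave 1 Oxford Nanopore direct RNA library and 1 Illumina TruSeq stranded mRNA library. The growth medium held horse serum, EGF, hydrocortisone, cholera toxin and insulin, and the labels do not say whether the line is a clone. No untreated library was among the samples, so the question open to these data was which canonical histone genes appear in each kind of poly(A) library.

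Most metazoan mRNAs end in a poly(A) tail, whereas canonical histone mRNAs are cut just after a conserved stem-loop. The stem-loop binding protein SLBP, the U7 small nuclear ribonucleoprotein and a cleavage complex carry out that step, mainly in S phase. Some canonical genes are known to give polyadenylated RNA as well. Direct RNA sequencing attaches its adapter to the poly(A) tail and reads the native strand, and the TruSeq kit selects tails before RNA is fragmented and copied, so both protocols start from tailed RNA.

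The total was 403235 counts for Nanopore and 191741714 for Illumina. In counts per 1000000 (CPM), 1 Nanopore count was worth 2.48 and 1 Illumina count 0.00522. A count of 0 allows up to 3 counts, which is 7.44 CPM and 0.0156 CPM. There were no replicates, so the intervals and tests reflect counting error and not the spread between samples. Of 9 genes listed as markers for a basal mammary epithelial line, all had counts in both libraries. Their Nanopore counts ran from 680 for KRT5 to 3 each for EPCAM and CDH1. Of 4 markers of other cells, none had a Nanopore count. The Illumina library held 2 counts of the leukocyte gene PTPRC, 9 of the hepatocyte gene ALB, 973 of the endothelial gene PECAM1 and 946 of the fibroblast gene COL1A1. EPCAM, with 770 Illumina counts, lay below PECAM1 and COL1A1.

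The stem-loop is printed here for the 8 members with at least 3 Nanopore counts, and for H3C10, the member with the most Illumina counts among those with no Nanopore count, because it is the end that canonical histone mRNAs carry in place of a tail. Capitals mark the 16-base stem-loop, and 5 bases are shown on each side, 5′ to 3′ on the coding strand of hg38.
H4C9: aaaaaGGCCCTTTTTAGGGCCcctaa
H2BC12: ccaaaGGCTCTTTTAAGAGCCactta
H2AC25: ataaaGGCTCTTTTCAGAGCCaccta
H1-2: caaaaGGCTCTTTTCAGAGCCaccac
H2AC6: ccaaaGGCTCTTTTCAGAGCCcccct
H2BC5: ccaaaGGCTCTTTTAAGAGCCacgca
H2BC21: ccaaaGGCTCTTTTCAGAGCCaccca
H2BC11: ctaacGGCTCTTTTAAGAGCCaccca
H3C10: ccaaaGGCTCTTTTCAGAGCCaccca
These stretches lie at chr6:27139649-27139674 on the plus strand for H4C9, chr6:27146361-27146386 on the minus strand for H2BC12, chr1:228457364-228457389 on the minus strand for H2AC25 and chr6:26055739-26055764 on the minus strand for H1-2. Those of H2AC6 (chr6:26124664-26124689) and H2BC5 (chr6:26158582-26158607) are on the plus strand, as is that of H3C10 (chr6:27810511-27810536). Those of H2BC21 (chr1:149886183-149886208) and H2BC11 (chr6:27132316-27132341) are on the minus strand.

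A stem-loop was found within 120 bases of the stop codon in 69 of 69 canonical genes, allowing 2 mismatches to the histone 3′ stem-loop consensus on the coding strand. The same pattern was found in 76 of 19796 other protein-coding genes (0.384%), searched from the stop codon of the longest coding sequence. For the canonical genes the stop codon was that of the coding transcript with the fewest exons. Counting Watson-Crick pairs only, all 6 stem base pairs could form in 67 of the 69, and 5 of 6 in the remaining 2, H2AC11 and H2AC15. In these 2 the other position sets T opposite G, a pairing that this count left out. The form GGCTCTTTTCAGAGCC was the most frequent, with 40 genes. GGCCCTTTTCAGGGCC was found in 10 genes and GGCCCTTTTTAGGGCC in 4, all of them H4 genes.

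The canonical poly(A) signal AATAAA, searched on the coding strand, lay within 300 bases after the stop codon in 9 of the 69 (13.0%) and within 1000 bases in 32 (46.4%). Windows of the same lengths in other protein-coding genes, with stop codons chosen as above, held it in 27.2% and 61.9%. In 2 measured members it began 13 bases past the stem-loop, and these 30 bases just after it are shown with the signal in capitals.
H1-2: accactgatctcAATAAAagagctggataa
H2BC5: acgcatgttttcAATAAAtgagttgtaatc
They lie at chr6:26055714-26055743 on the minus strand and chr6:26158603-26158632 on the plus strand. H1-2 had 9 Nanopore and 3396 Illumina counts, and H2BC5 had 7 and 889. The first AATAAA of H2AC6 began 746 bases past the stem-loop and that of H4C9 946 bases past it. In the 1000 bases after the stop codon no AATAAA was found for H2BC12, H2AC25, H2BC21 or H2BC11. The search followed the genome, and the farthest annotated 3′ ends of H2AC25, H2BC21, H2BC11 and H2AC6 lie beyond it. They are 22592, 1729, 6424 and 14432 bases past the stem-loop, so signals near those ends were not searched.

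At least 1 Nanopore count was present for 20 of the 65 members. The share over all genes was 26.7%, and over protein-coding genes it was 59.2%. The Illumina library had a count for 50 of 65, where 46.5% of all genes and 78.3% of protein-coding genes had one. In neither library was a count found for 12 members, namely H1-6, H2AC1, H2AC15, H2BC1, H2BC3, H3C14, H3C15, H4C1, H4C2, H4C6, H4C7 and H4C13. H1-6, H2AC1 and H2BC1 are known as testis-specific members.

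**Figure D1:**
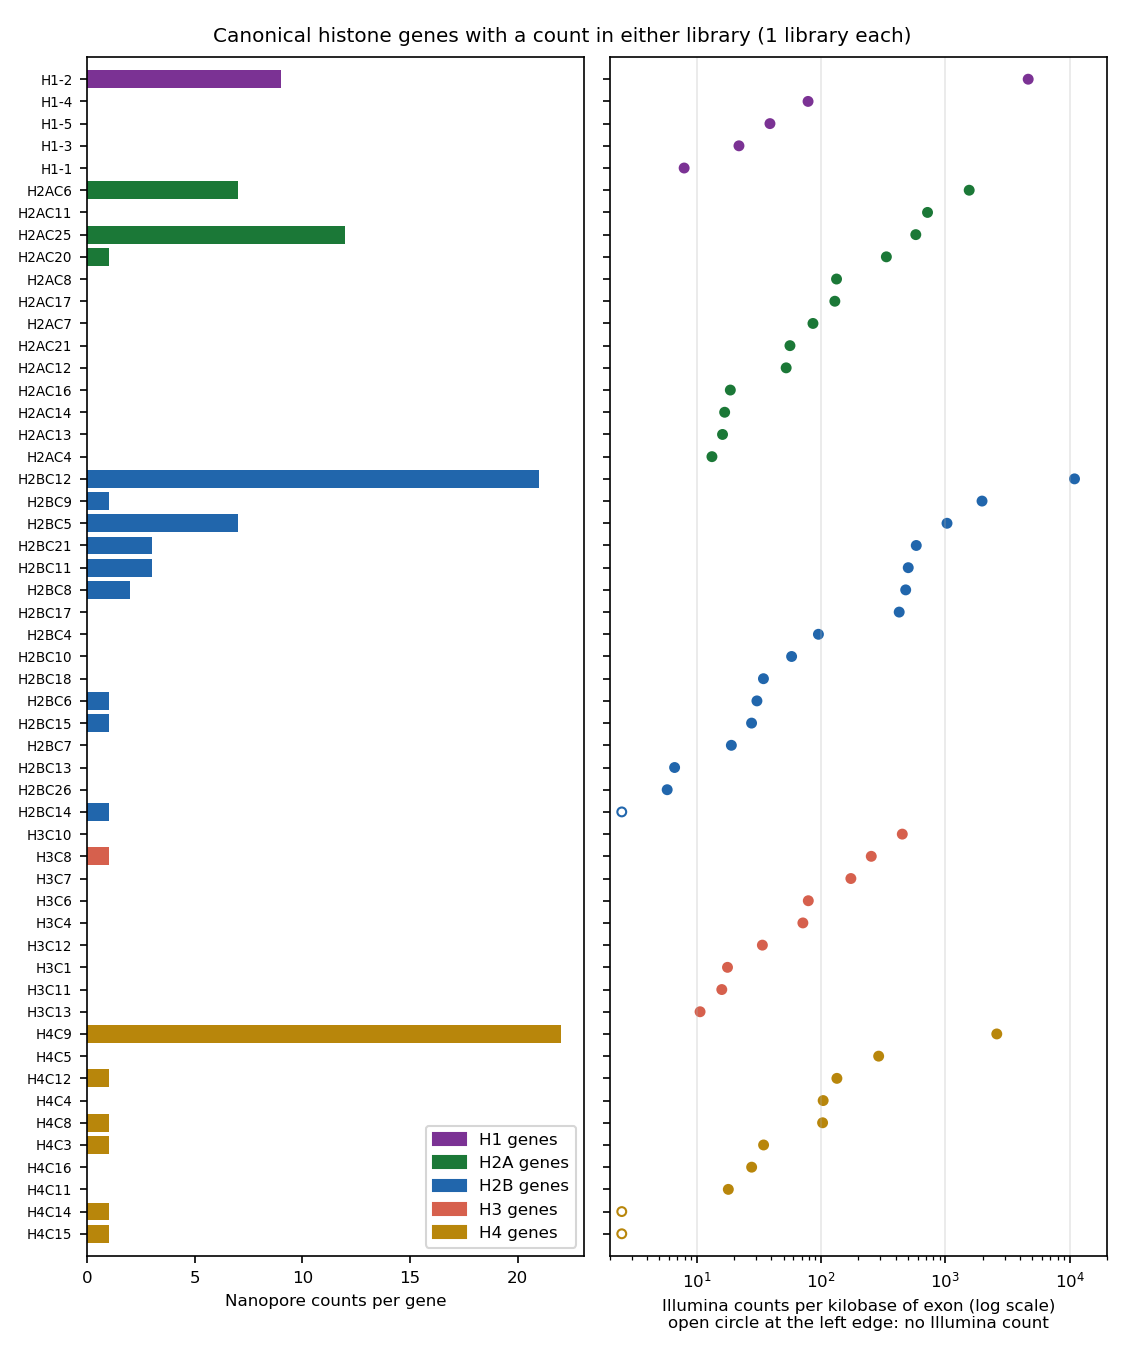
Nanopore counts (left, bars) and Illumina counts per kilobase of exon (right, points on a log axis) of the 53 canonical histone genes with a count in either library, coloured by family, with open circles for no Illumina count. H4C9 and H2BC12 have the longest bars, 22 and 21 counts, and H2BC12 stands highest by Illumina.

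More abundant members were detected more often. All 6 members with 1000 or more Illumina counts had Nanopore counts, 74 in sum, where equal CPM in both libraries would give 31.2. Of the 14 members with at least 100 but under 1000 Illumina counts, 8 were detected, with 17 Nanopore counts against 10.4 at equal CPM. Of the 30 members with 1 to 99 Illumina counts, 3 were detected, with 1 count each. Spearman's rho between the libraries was 0.68 across the 50 members with an Illumina count, given as a description because members share library and depth.

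The 45 members without a Nanopore count held 2522 Illumina counts, 12.2% of the members' total. At equal CPM they would have given 5.30 Nanopore counts in sum, and H3C10, the most abundant of them, 1.19. On the CPM scale a difference between the libraries was therefore not detectable at this depth for any 1 of them. With Illumina TPM by exonic length H2AC11 stood at 10.2, above the 7.44 CPM that 3 Nanopore counts stand for, so for that gene this depended on the scaling.

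In sum, members held 97 Nanopore counts, 240.6 CPM (197 to 293), and 20686 Illumina counts, 107.9 CPM (106 to 109). These are 0.0241% and 0.0108% of the library totals. The Nanopore share was 2.23 times the Illumina share, and 1.81 times without H4C9. Illumina counts of a gene grow with transcript length while a Nanopore read stands for 1 strand. When Illumina values were first divided by exonic length and rescaled to 1000000 (TPM), the Illumina sum was 412 and the direction turned, to a log2 ratio of -0.78.

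The counts were concentrated in a few genes. The 8 members with at least 3 Nanopore counts held 84 of the 97 (86.6%) and 78.5% of the members' Illumina counts. H4C9 and H2BC12 alone held 44.3% by Nanopore and 31.2% by Illumina. The median Illumina count of the 65 members was 29.

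H4C9, one of the many genes for the identical H4 core histone, lies at chr6:27139282-27139678 on the plus strand (ENSG00000276180) and has 1 annotated exon that overlaps no other gene. It had 22 Nanopore counts, 54.6 CPM (36.0 to 82.6), and 1031 Illumina counts, 5.38 CPM (5.06 to 5.71). The intervals did not overlap, and the log2 ratio of Nanopore to Illumina CPM, each with 1 added, was 3.12 (adjusted p = 6.79e-14, exact binomial test, Benjamini-Hochberg over the 12414 genes whose mean reached 5 CPM).

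H2AC25 encodes an H2A core histone and lies on the minus strand at chr1:228434777-228457873 (ENSG00000181218), with 3 annotated transcripts. It had 12 Nanopore counts, 29.8 CPM (17.0 to 52.0), and 1072 Illumina counts, 5.59 CPM (5.27 to 5.94). Its log2 ratio was 2.22 (adjusted p = 4.29e-05, same exact test). Its body overlaps the pseudogene RPL23AP15, which had 0 counts in both libraries and shares no exon with it.

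H4C9 and H2AC25 were the 2 members at least 4-fold higher by Nanopore, of 8 that passed the mean of 5 CPM. None of the 8 was 4-fold lower by Nanopore. At a mean of 5 CPM that call was possible only for H2BC12, H1-2 and H2AC6, at 28.3, 17.7 and 13.6 CPM by Illumina. The rest stood too low by Illumina to be called lower, so for them this outcome was fixed by the level. Over all genes tested, 12.9% were 4-fold higher and 8.14% 4-fold lower, and the median log2 ratio was -0.42. Among the 202 tested protein-coding genes with up to 1000 exonic bases, 32.7% were 4-fold higher. H4C9 has 397 exonic bases and H2AC25 has 1850. With Illumina TPM by exonic length neither reached 4-fold, at log2 ratios of 0.56 for H4C9 and 1.74 for H2AC25. H2BC5 and H2BC11, at 4.64 and 2.75 CPM by Illumina, passed the minimum only through their Nanopore level, so the 8 are not a fair sample of the 65.

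**Figure D2:**
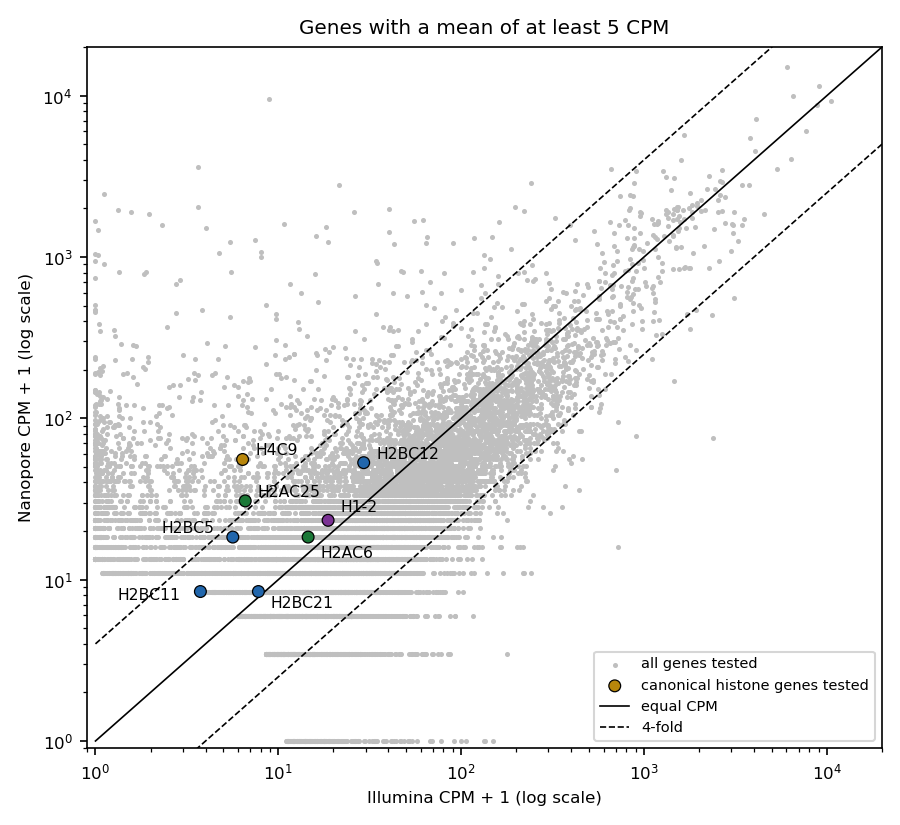
Nanopore level against Illumina level, each as CPM + 1 on a log axis, of all genes tested (grey) and of the 8 canonical histone genes among them (named, coloured by family), with lines at equality (solid) and at 4-fold (dashed). H4C9 and H2AC25 lie beyond the upper 4-fold line and no canonical gene lies beyond the lower one.

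H2BC12, an H2B core histone gene, lies at chr6:27146361-27146855 on the minus strand (ENSG00000197903) and had the highest Illumina level of all members, 10958 counts per kilobase of exon. It had 21 Nanopore counts, 52.1 CPM (34.1 to 79.6), and 5424 Illumina counts, 28.3 CPM (27.6 to 29.0). Its log2 ratio was 0.86 (adjusted p = 0.0315, exact binomial test), which became -1.55 with Illumina TPM by exonic length. Of its 50-base words, 57.2% also occur in another gene, mostly H2BC12L, which had 0 Nanopore and 20 Illumina counts.

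H1-2 encodes a linker histone, which binds the DNA between nucleosomes, and lies at chr6:26055740-26056470 on the minus strand (ENSG00000187837). Its 9 Nanopore counts were 22.3 CPM (11.7 to 42.4) and its 3396 Illumina counts were 17.7 CPM (17.1 to 18.3). The intervals overlapped, at a log2 ratio of 0.32 (adjusted p = 0.703, exact test). With Illumina TPM by exonic length the ratio turned to -1.51, and its 65.6 TPM lay above the Nanopore interval. None of its 50-base words occur in another gene. Of the 6 H1 members it was the only one with a Nanopore count.

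H2AC6, an H2A gene at chr6:26124145-26139116 on the plus strand (ENSG00000180573), had 7 Nanopore counts, 17.4 CPM (8.41 to 35.8), and 2599 Illumina counts, 13.6 CPM (13.0 to 14.1). Its log2 ratio of 0.34 was within counting error (adjusted p = 0.738, exact test), and it was -0.33 with TPM by exonic length. H2BC5, an H2B gene at chr6:26158122-26171349 on the plus strand (ENSG00000158373), had the same Nanopore count and 889 Illumina counts, 4.64 CPM (4.34 to 4.95). Its log2 ratio was 1.70 (adjusted p = 0.0161, exact test). With TPM by exonic length it was 0.24, and the 14.6 TPM lay within the Nanopore interval.

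The 2 remaining members with 3 Nanopore counts, 7.44 CPM (2.53 to 21.9), both encode H2B. H2BC21, at chr1:149884459-149886682 on the minus strand (ENSG00000184678), stood at 6.78 CPM by Illumina (1300 counts), a log2 ratio of 0.12. H2BC11, at chr6:27125897-27132795 on the minus strand (ENSG00000124635), stood at 2.75 CPM (527 counts), a log2 ratio of 1.17. Neither difference exceeded counting error (adjusted p = 1 and adjusted p = 0.308, exact test). With TPM by exonic length the ratios were -0.13 and 0.06.

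H2BC8 had 2 Nanopore and 235 Illumina counts. A single Nanopore count, 2.48 CPM (0.438 to 14.1), was present for 11 members, and their Illumina counts ran from 0 to the 913 of H2BC9. H2BC9 encodes H2B and lies at chr6:26251614-26252075 on the plus strand. Its 1976 Illumina counts per kilobase placed it behind only H2BC12, H1-2 and H4C9, and its Illumina level was 4.76 CPM, within the interval of its Nanopore count. As TPM by exonic length it was 27.9, above that interval. H2BC14, H4C14 and H4C15 had 1 Nanopore count each and no Illumina count.

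Among members at 0 by Nanopore, H3C10 had 564 Illumina counts, H2AC11 355, H2BC4 275, H3C6 212, H2BC17 199 and H4C5 120. H2AC11, an H2A gene at chr6:27133043-27133535 on the plus strand, stood at rank 7 of the members per kilobase, with 720.1 Illumina counts per kilobase. By this measure the order was H2BC12, H1-2, H4C9, H2BC9, H2AC6, H2BC5, H2AC11, H2BC21 with 584.5, H2AC25 with 579.5 and H2BC11 with 503.8. Neighbours such as H2BC21 and H2AC25 differed by less than their counting intervals.

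The 5 families differed in how much of the signal they held. The 18 H2B members had 40 Nanopore and 10090 Illumina counts, with 9 members detected by Nanopore and 15 by Illumina. The 15 H2A members had 20 and 4452 counts, with 3 and 13 detected. H2A and H2B form the dimers on the outside of the nucleosome core, and together they held most of the members' counts in both libraries.

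The 15 H4 members had 27 Nanopore counts, of which 22 were of H4C9, and 1557 Illumina counts, of which 1031 were of H4C9. They made up 27.8% of the members' Nanopore counts and 7.53% of their Illumina counts. The 11 H3 members had 1 Nanopore count, of H3C8, and 1075 Illumina counts, or 1.03% and 5.20% of the members' counts. The 6 H1 members had 9 and 3512 counts, with 5 members detected by Illumina.

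By position, 53 members lie on chromosome 6, of which 15 were detected by Nanopore and 42 by Illumina. The 11 on chromosome 1 included 5 and 7 detected, with 18 Nanopore and 2662 Illumina counts. H4C16, the only one on chromosome 12, had 0 and 68.

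Members could also be set apart by their annotated 3′ end, which the choice of genes had not used. In 17 members an annotated transcript ended at least 100 bases past the stem-loop, and 10 of these had a Nanopore count and 14 an Illumina count. Of the 48 members annotated only to about the stem-loop, 10 had a Nanopore count and 36 an Illumina count. The classes also differed in level, with a median Illumina count of 212 in the first and 15.5 in the second. In each class 10 members had 100 or more Illumina counts. Whether detection followed the annotated end or the level was not tested. The second class nevertheless held more counts, 60 by Nanopore against 37 and 12669 by Illumina against 8017. H4C9, H2BC12 and H1-2 belong to it.

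A list of 7 canonical genes known from the literature to give polyadenylated RNA was set beside these classes. Of the list, H1-2, H2AC6, H2BC5, H2BC12 and H2BC21 were detected by Nanopore and all 7 by Illumina. H2BC4 had 0 Nanopore and 275 Illumina counts, and H4C16 had 0 and 68. The list held 48.5% of the members' Nanopore and 67.4% of their Illumina counts. The other 58 members had 50 Nanopore counts, with 15 detected, and 6735 Illumina counts, with 43 detected. H4C9 and H2AC25 are among those 58.

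Detection is given by stem-loop form as a description. All 4 members with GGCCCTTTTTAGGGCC had Nanopore counts, 22 for H4C9 and 1 each for H4C12, H4C14 and H4C15. Of the 10 members with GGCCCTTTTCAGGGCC, H4C3 and H4C8 had 1 Nanopore count each and the rest 0. The 9 members with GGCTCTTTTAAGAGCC included 4 detected, H2BC12, H2BC5, H2BC11 and H3C8, with 32 Nanopore counts. The most frequent form, with 36 of the 65 members, had 9 detected and 37 Nanopore counts. Over all 65 members 20 were detected. H4C14 and H4C15 share at least 97.5% of their 50-base words with each other. H4C12 shares 92.6% with H4C11, which has a different form. Which gene these single counts came from is therefore uncertain. The grouping by form was chosen after the values were seen, and whether detection followed the form was not tested.

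Several members share sequence or position, and how such reads were counted is not given in the sources used here. In H3C4, H3C14, H3C15, H4C14 and H4C15 at least 95% of 50-base words occur in another gene. Their combined counts were 2 by Nanopore and 36 by Illumina, all of the latter in H3C4, so their values are uncertain. Of the 26 members that share no such word, 6 were detected by Nanopore and 17 by Illumina, with 15 and 5705 counts.

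Exons of 9 members overlap exons of another gene of the tables, and these 9 had 1 Nanopore and 645 Illumina counts in sum. H2BC4 shares 430 exonic bases with HFE, which had 6 and 3436 counts. H2AC21, with 0 and 28 counts, shares 76 with BOLA1. H2BC6, with 1 and 79 counts, shares exonic bases with the antisense gene ENSG00000283064, with 6 and 81, and reads of the pair cannot be told apart unless strand was used in counting.

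Canonical H2A and H2B genes often sit head to head on a shared promoter region. Such pairs, with coding starts 303 to 381 bases apart, numbered 12 among the members, and in 9 both genes had Illumina counts. Per kilobase the H2B gene was higher in 4 pairs and the H2A gene in 5. The higher gene exceeded its partner by 1.43 times at the least, by 3.60 times at the median and by 209 times at the most.

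The largest difference was that of H2BC12, at 10958 Illumina counts per kilobase, over its partner H2AC12 at 52.5. H2AC12 had 24 Illumina counts and no Nanopore count, against 5424 and 21 for H2BC12. In the opposite direction, H2AC25 stood at 579.5 per kilobase and H2BC26 at 5.80. Their counts were 1072 and 29 by Illumina and 12 and 0 by Nanopore. H2AC6 stood at 1558 and H2BC4 at 95.5, with 7 and 0 Nanopore counts. The annotated exons of H2BC26 and H2BC4 span 5002 and 2881 bases, which lowers their per-kilobase values.

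H2AC11 and H2BC11 differed least, at 720.1 and 503.8 per kilobase, and by counts the order was the opposite, 355 and 527. Only in H2AC20 and H2BC21 did both genes of a pair have Nanopore counts, 1 and 3.

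**Figure D3:**
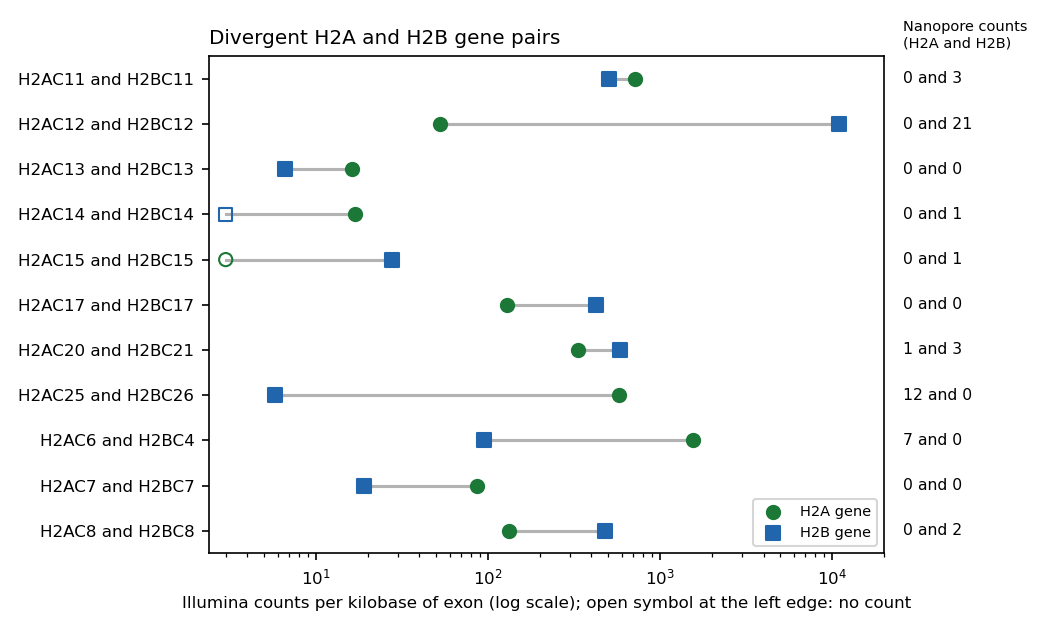
Illumina counts per kilobase of exon, on a log axis, of the H2A gene (circle) and H2B gene (square) of the 11 head-to-head pairs with a count, joined by a line, with open symbols for no count and Nanopore counts at the right. Of the 9 pairs with both genes counted, H2AC12 and H2BC12 are the most unequal, at 209 times, and H2AC11 and H2BC11 the least, at 1.43 times.

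Replication-independent histone genes mostly give ordinary polyadenylated mRNA, made outside S phase too, and were set beside the canonical genes. H2AX among them is known to give a stem-loop mRNA as well. The 12 genes listed had 988 Nanopore and 592110 Illumina counts. All had Illumina counts, and H3-5 alone had none by Nanopore. H1-10, a linker histone, was the only one of 11 tested that was 4-fold higher by Nanopore, where 12.9% of all genes tested were. It had 69 and 7355 counts and a log2 ratio of 2.13 (adjusted p = 6.23e-22, exact test). Its body overlaps another annotated gene, its exonic length is 1516 bases, and the ratio is not corrected for length.

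Within H2A, canonical genes held 20 Nanopore counts against 601 for the variants (H2AZ1, H2AZ2, H2AX, H2AJ, MACROH2A1 and MACROH2A2), a share of 3.22% (2.09% to 4.92%). By Illumina counts per kilobase the share was 2.92%, within that interval. Within H1 the canonical share was 9.89% (5.29% to 17.7%) by Nanopore, 9 against 82 counts, and 25.7% by Illumina per kilobase, outside the interval. Within H3 it was 0.327% (0.0577% to 1.83%) by Nanopore, 1 count against 305, and 2.54% by Illumina. By Illumina counts not divided by length the canonical shares were 11.4% in H1, 1.24% in H2A and 0.511% in H3. Whether the Illumina share lay above the Nanopore interval, within it or below it therefore depended on the division by length in all 3 families.

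**Figure D4:**
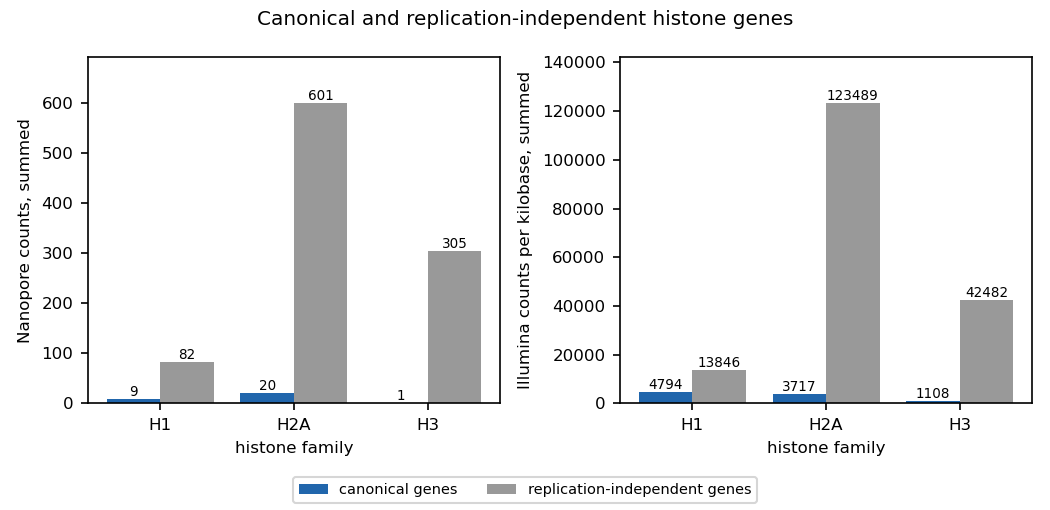
Summed Nanopore counts (left) and summed Illumina counts per kilobase (right) of canonical and replication-independent genes in the H1, H2A and H3 families, with the values above the bars. Canonical genes are the smaller bar in each family and panel, with 9, 20 and 1 Nanopore counts.

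Genes that make and process canonical histone mRNA were measured in both libraries. All 17 listed had counts and passed the minimum. None was 4-fold higher and 3 were 4-fold lower by Nanopore, where 12.9% and 8.14% of all genes tested were. The list median log2 ratio was -1.23, beside -0.42 over all genes tested. Of the 3, POU2F1, an octamer-binding transcription factor, stood at -3.23 with 1 Nanopore count (adjusted p = 0.000301, exact test). CSTF2, a cleavage stimulation factor subunit, stood at -2.25 with 2 Nanopore counts (adjusted p = 0.00677, exact test). LSM11, a U7 particle subunit, stood at -2.01 with 1 Nanopore count, and its difference did not pass the exact test (adjusted p = 0.119). Their exonic lengths are 16031, 2743 and 6567 bases, and these ratios are not corrected for length.

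SLBP, which binds the stem-loop, had 20 Nanopore and 11672 Illumina counts and a log2 ratio of -0.29 (adjusted p = 0.546, exact test). NPAT, the coactivator of histone genes, had 2 and 2243 counts. CASP8AP2, a U7 pathway cofactor also called FLASH, had 3 and 3598. The U7 subunit LSM10 had 12 and 5839 counts, at a log2 ratio of -0.03, and ZNF473, a zinc-finger protein of the same pathway, had 1 and 2137.

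All 14 histone chaperone and importer genes and all 12 S phase genes were detected in both libraries. Of the 14 chaperone and importer genes 2 were 4-fold lower by Nanopore, where 8.14% of all genes tested were. They were the H1 and H3-H4 chaperone NASP at -2.24, with 28 and 63824 counts, and NAP1L4, an H2A-H2B chaperone, at -2.07, with 17 and 34494. Their exonic lengths are 8304 and 5200 bases, and these ratios are not corrected for length. No S phase gene was called in either direction, where 12.9% of all genes tested were higher and 8.14% lower. The list median was -1.45, beside -0.42 over all genes tested. The S phase ratios, also not corrected for length, ran from -1.96 for MCM3 to 1.40 for CCNE2. PCNA, the replication clamp, had 68 Nanopore and 54077 Illumina counts. It alone held more Illumina counts than all 65 canonical histone genes in sum, but fewer Nanopore counts than their 97.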

How the data were processed

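The authors deposited raw counts per Ensembl gene, whole numbers with no normalization, in 1 table per library, each with 1 column per the file headers. The submitters' processing notes name minimap2 2.11-r797, HISAT2 2.1.0, featureCounts and hg38, with no role or order. The annotation release, strand setting and treatment of overlapping or multiply mapped reads are not given in the sources used here. Names, types and positions came from GENCODE release 44 on hg38. Of 58735 identifiers, 58207 matched, and the 528 others held 0.396% of Nanopore and 0.172% of Illumina counts.

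Counts were divided by library totals (CPM). Genes whose mean reached 5 CPM were compared by log2 of CPM plus 1, and called at 4-fold. A two-sided exact conditional binomial test, with Benjamini-Hochberg adjustment over all genes tested, compares these 2 libraries and not the platforms, and was read at 0.05. With 1 library per platform no quasi-likelihood model could be fitted. Intervals are 95% Wilson intervals for counting error, and amplified reads are not independent molecules. Lengths are unions of annotated exons. The method was tested on simulated data. The genes changed there were at an Illumina level that only H2BC12 reached among members, so changes at lower levels were not covered. TMM used edgeR 4.0.16 in R 4.3.3, and the rest ran in Python 3.11.15 with pandas 2.3.3 and scipy 1.17.1. Alternatives were other minimum counts, filters, pseudocounts, scalings and lengths, and leaving out H4C9 or overlapping genes.

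The genes named are members with at least 3 Nanopore counts, the 10 highest by Illumina counts per kilobase, those with no count, and listed pathway genes past 4-fold with SLBP, NPAT, ZNF473, LSM10, LSM11 and CASP8AP2. Other members and neighbours named, H3C10 and PCNA included, were chosen after their values were seen. Members and lists were chosen with earlier results of these data known.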

Additional observations from a re-analysis of the deposited data

How the results depend on the processing

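Nanopore depth set what could be detected. With at least 3 counts required, 8 members were detected by Nanopore, and with 10, 3. At 1 CPM or more by Illumina, 16 were. Restricted to members whose bodies overlap no other gene, which are fewer than the 65, 11 were detected by Nanopore and 24 by Illumina. Leaving members out lowers such counts and summed shares by itself, so they are not rates of detection. The members' share of Nanopore counts, 0.0241%, became 0.0186% without H4C9, 0.0159% without body overlaps, and 0.0181% for members with under 50% of 50-base words shared. The Illumina share, 0.0108%, became 0.0103%, 0.00695% and 0.00781% in the same order, 0.0105% without exon overlaps, 0.0412% as TPM by exonic length and 0.0198% as TPM by mean transcript length. The alternatives on exon overlap and shared words were chosen after seeing the data.

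The log2 ratio of the summed shares, 1.16, was 0.86 without H4C9, 0.28 with TPM by mean transcript length and -0.78 with TPM by exonic length. With TPM by exonic length the ratios of H2BC12 (-1.55), H1-2 (-1.51), H2AC6 (-0.33) and H2BC21 (-0.13) reversed, and with mean transcript length those of H2BC12 (-0.39) and H1-2 (-0.37). Members under 5 CPM on average moved further: H2BC9, with 1 Nanopore count, went from -0.73 to -3.05 by exonic length and -1.94 by mean transcript length. H2AC11, with none, went from -1.51 to -3.48 and -2.46, and to -4.29 with a pseudocount of 0.1, so both passed 4-fold lower by exonic length. Ratios of a gene at 0, such as H2AC11, depend on the pseudocount and are no bound. These scalings moved the median of all genes from -0.42 to 0.42 and 0.07. Of the 2 members 4-fold higher, 0 stayed so with TPM by exonic length, 1 (H2AC25) with mean transcript length, 1 (H4C9) with a pseudocount of 5, and 1 (H4C9, of 5 tested) among genes without overlap. Both stayed so under TMM, median-ratio scaling, a pseudocount of 0.1 and other filters. A filter on level leaves a gene's ratio unchanged, so those filters were no check on the 2 ratios. Of the members that passed the minimum level, none was 4-fold lower under any alternative. With scaling by totals and a minimum mean of 5 CPM, only H2BC12, H1-2 and H2AC6 had an Illumina level at which that call was possible. No paired analysis was possible because there is 1 library per platform.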
